A study of Mus musculus with 36 samples.

Results

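Eya1, Tbx15, Sox6, Mef2c, Prox1, Nfatc1, Tead1, Esrrg and Vgll2 are transcription factors and cofactors of slow or fast muscle fiber identity. They were taken as a named list, by Ensembl ID, from the gene counts of both muscles, and make up 9 of the 51912 IDs counted. The counts come from RNA-seq of the tibialis anterior (TA), a fast muscle, and the soleus, a slow muscle, of male C57BL/6 mice at 3 months of age. The mice were wild type (WT) or ∆Ig3-MuSK, a line made with CRISPR-Cas9 in which exons of Musk that encode the third immunoglobulin-like domain of the muscle-specific kinase MuSK are deleted in every cell of the body. Each genotype was represented by 9 TA and 9 soleus libraries, 36 in all. No animal was given an agent, and each library holds RNA of 1 whole muscle, with its vessels, nerve, connective tissue and satellite cells beside the fibers. All 9 genes passed the filter on low counts in every comparison.

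Fibers are set as slow or fast by their myosin heavy chain, and a small number of nuclear regulators keep each program on or off. On the fast side, EYA1 acts as a coactivator on fast genes, TBX15 marks glycolytic fibers, and SOX6 represses slow genes in fast fibers. On the slow side, tonic nerve activity raises calcium, calcineurin dephosphorylates NFATc1, and NFATc1 and MEF2 proteins act on slow genes. PROX1, the TEAD cofactor VGLL2, TEAD1 itself and the nuclear receptor ERRγ (Esrrg) also act in slow or oxidative fibers. Much of this regulation acts on the protein, by phosphorylation and entry into the nucleus, which RNA levels do not measure.

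The labels of the muscles were checked with the myosin heavy chains. Values are CPM, counts corrected for library depth and, by edgeR's TMM factors, for composition, on 1 scale over the 36 libraries. Myh7, the slow chain, had 1.98 to 21.0 CPM in WT TA and 6539 to 10254 CPM in WT soleus. Myh4, the fastest chain, had 11922 to 25793 CPM in WT TA and 150 to 6111 CPM in WT soleus, so the soleus libraries differed widely in it. Musk, the gene of the deletion, had 4.25 ± 0.947 CPM in WT and 3.08 ± 0.391 CPM in ∆Ig3-MuSK TA, and 15.2 ± 1.82 CPM in WT and 11.3 ± 3.29 CPM in ∆Ig3-MuSK soleus (SD, n = 9). Musk did not pass the test of genotype in either muscle (edgeR's quasi-likelihood test, adjusted p = 0.135 and 0.0978), and counts summed over a whole gene do not show the deleted exons. Total counts were 49287472 to 78660422 in the TA libraries and 43492062 to 60426556 in the soleus libraries. ∆Ig3-MuSK soleus replicate 8 stood apart with 10.5 CPM summed over 4 tendon markers, against a group median of 165. The calls of the regulators and of the pathway lists were therefore also computed without it, and a call that changes is named beside its value.

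Prox1, Vgll2 and Mef2c, which were all higher in soleus, have a RefSeq promoter window that lies outside the annotated gene, and the windows are shown because the genes moved together between the muscles. Each line gives the 250 bases before the RefSeq start (GRCm38.p6), 5′ to 3′ on the strand of the gene. Capitals mark matches, on either strand, to CATTCC (the TEAD motif), GGAAA (the core of the NFAT motif), ACAAT (SOX), GGTGTGA (T-box), AAGGTCA (estrogen-related receptor), TCAGGTTTC (MEF3) or the MEF2 motif.
Prox1, chr1:190170828-190171077, minus strand: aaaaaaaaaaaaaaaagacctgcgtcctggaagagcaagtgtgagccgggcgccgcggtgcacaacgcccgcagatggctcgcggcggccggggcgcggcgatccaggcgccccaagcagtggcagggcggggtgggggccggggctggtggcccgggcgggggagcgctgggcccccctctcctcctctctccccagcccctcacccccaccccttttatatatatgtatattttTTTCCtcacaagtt
Vgll2, chr10:52022252-52022501, plus strand: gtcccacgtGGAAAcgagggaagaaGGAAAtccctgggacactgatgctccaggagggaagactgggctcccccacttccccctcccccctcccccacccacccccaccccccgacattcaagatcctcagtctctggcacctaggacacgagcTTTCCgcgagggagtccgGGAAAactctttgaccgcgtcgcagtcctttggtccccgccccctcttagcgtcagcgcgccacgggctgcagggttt
Mef2c, chr13:83503784-83504033, plus strand: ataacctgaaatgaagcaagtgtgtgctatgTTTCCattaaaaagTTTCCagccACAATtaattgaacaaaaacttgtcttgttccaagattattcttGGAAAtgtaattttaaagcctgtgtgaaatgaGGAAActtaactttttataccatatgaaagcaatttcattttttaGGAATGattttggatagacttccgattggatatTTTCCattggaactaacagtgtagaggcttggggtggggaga
There was 1 RefSeq promoter window for Vgll2, but 2 for Prox1, 3 for Mef2c, 4 for Esrrg and 6 for Sox6. For each gene only the window with its start nearest the annotated 5′ end is described. Which start is used in these muscles is not known. The Prox1 window so chosen held 1 NFAT core and none of the other capitalized motifs. The Vgll2 window held 4 NFAT cores. The Mef2c window held 5 NFAT cores, 1 TEAD motif and 1 SOX motif. These are short motifs, and their shares were counted over 32817 promoter windows. Those windows run past the start, so they are longer than the 250 bases shown. Of them, 61.3% held the NFAT core, 31% the SOX motif, 14.7% the TEAD motif, 4.72% the estrogen-related receptor motif, 3.98% the T-box motif, 3.19% the MEF2 motif and 0.43% the MEF3 motif. The Esrrg window held a MEF2 motif, CTATTTATAG, at positions -22 to -13 from its start, where the 10 letters match on both strands, beside 3 NFAT cores, 1 TEAD and 1 SOX motif. The Sox6 window held 1 TEAD motif and 1 NFAT core close beside each other. An E-box (CANNTG, in 72.3% of all windows) was in each of these 5 windows and is not capitalized. A match of letters is a description and not a measured site. Eya1, Tbx15, Tead1 and Nfatc1 are named only.

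The first comparison asks how the regulators differ between the slow and the fast muscle. In WT, 5 of the 9 were higher in soleus (Prox1, Esrrg, Vgll2, Tead1 and Mef2c), 3 were lower in soleus (Sox6, Tbx15 and Eya1), and Nfatc1 did not pass the test. The differences ran from 20.9-fold for Prox1 to 1.38-fold for Mef2c among those higher in soleus, and from 2.23-fold to 1.48-fold among those higher in TA. A call required a difference of 1.2-fold or more and an adjusted p (Benjamini-Hochberg) under 0.05 in edgeR's quasi-likelihood test over 19437 genes. That test called 57.7% of all genes in this comparison, 30% higher and 27.6% lower in soleus, and 69.2% had an unadjusted p under 0.05, as did all 9 regulators. A share called of this size means that a call alone sets no regulator apart. The median absolute log2 difference was 0.37 over all genes, and Prox1, Esrrg, Vgll2, Sox6, Tbx15, Tead1, Eya1 and Mef2c were above it. The CPM ranges of the WT muscles did not overlap for 7 of the 9, and did not for 29.6% of all genes tested. In ∆Ig3-MuSK the same 8 regulators were called in the same directions, where the test called 55.9% of 19910 genes, 27.9% higher and 28% lower, and 70.4% had an unadjusted p under 0.05, as did 8 of the 9. The ranges of the ∆Ig3-MuSK muscles did not overlap for 8 of the 9, and did not for 30.2% of all genes.

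**Figure D1:**
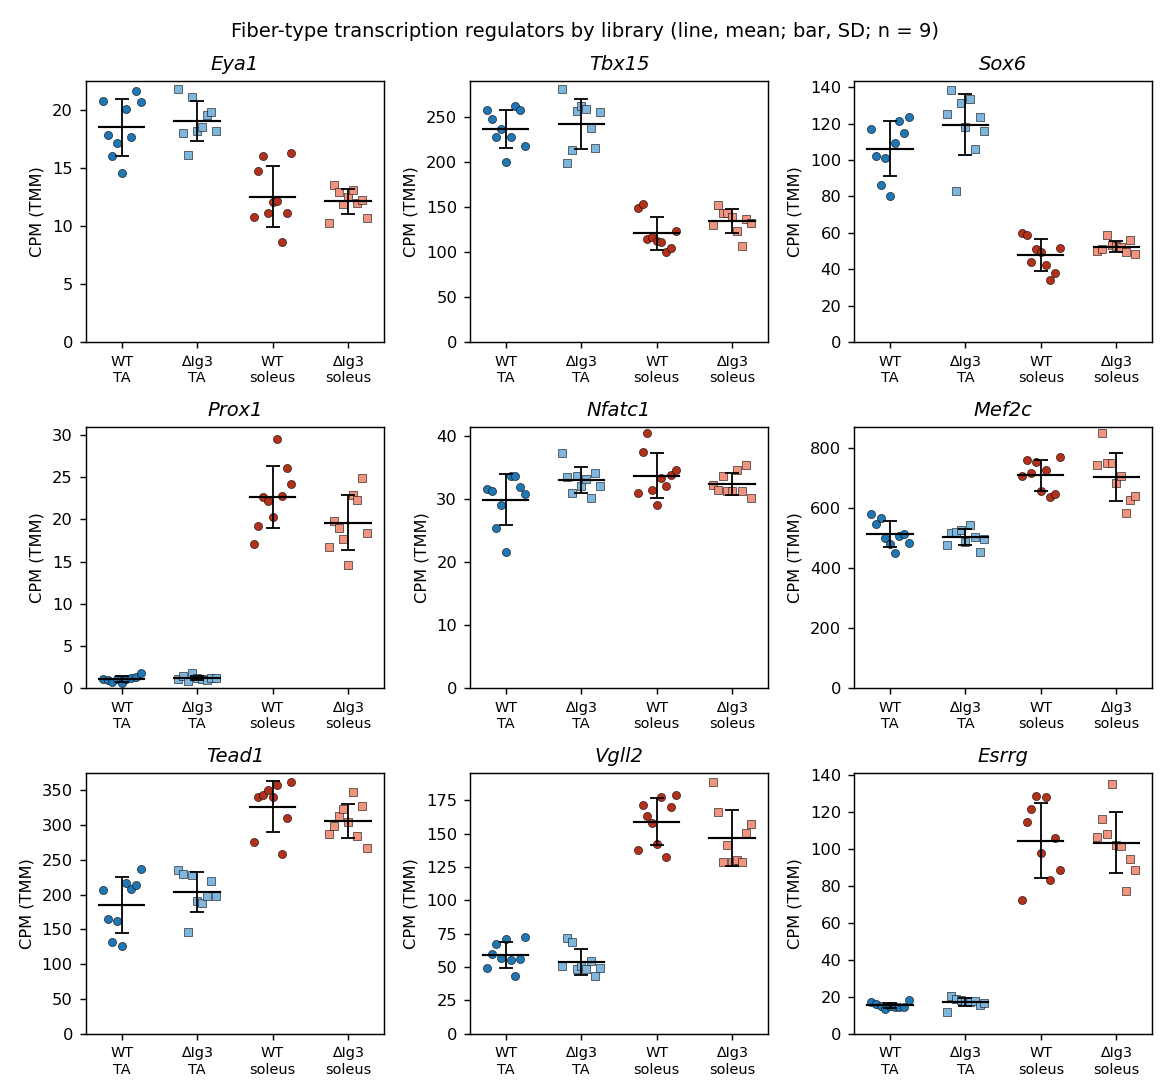
Level of each regulator in each library in CPM (linear axes from 0), with 9 libraries per group, the mean as a line and the SD as a bar. Prox1, Esrrg and Vgll2 sit higher in every soleus library than in any TA library of the same genotype, Sox6 and Tbx15 sit lower, and the groups of Nfatc1 lie on one another.

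Prox1 (ENSMUSG00000010175, chr1:190118035-190170714 of GRCm38, minus strand) encodes a homeobox factor of slow fibers that is also a defining factor of lymphatic endothelium. In WT TA it had 0.618 CPM in the lowest library, a median of 1.11 and 1.79 in the highest, from 33 to 133 counts. In WT soleus it had 17.1, 22.7 and 29.6 CPM, and in ∆Ig3-MuSK it had 0.764, 1.13 and 1.74 CPM in TA and 14.6, 18.9 and 24.9 CPM in soleus. Every soleus library was thus far above every TA library. The difference between the muscles was 4.39 on the log2 scale in WT (SE 0.155, adjusted p = 9.08e-16, edgeR) and 4.05 in ∆Ig3-MuSK (SE 0.128, adjusted p = 1.29e-16), or 20.9-fold and 16.6-fold. Prox1os, a gene antisense to Prox1, shares 133 bases of exon with it, 1.59% of the exons of Prox1, and the libraries do not mark strand. It had 0.988 CPM in WT soleus and 0.0519 CPM in WT TA, far below the level of Prox1 in each muscle.

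Because PROX1 also marks lymphatic endothelium, markers of that cell type are set beside it. Of 5 lymphatic markers tested, 4 were called higher in WT soleus than in WT TA (Reln, Lyve1, Flt4 and Pdpn), against 30% of all genes. The median log2 difference of these 5 markers was 0.58. Their summed level was 11.7 to 18.05 CPM in WT TA and 19.3 to 48.2 CPM in WT soleus, and none of the 5 was at 0 in every library of a group. In ∆Ig3-MuSK 2 of the 5 were called higher in soleus (3 of 5 without ∆Ig3-MuSK soleus replicate 8), against 27.9% of all genes. The sums there were 11.4 to 20.6 CPM in TA and 13.3 to 42.7 CPM in soleus. The log2 difference of Prox1 was larger than that of each of the 5, of which Reln had the largest, 2.81 in WT (SE 0.277) and 1.87 in ∆Ig3-MuSK (SE 0.257). ∆Ig3-MuSK soleus replicate 8 had the lowest lymphatic sum of its group and the highest Prox1 level, and replicate 5 the reverse. In WT TA, replicate 5 had the lowest lymphatic sum and the lowest Prox1 level, and replicate 9 the highest of both. In WT soleus, Prox1 had 19.3 CPM in the library with the lowest sum and 26.1 CPM in that with the highest. In ∆Ig3-MuSK TA, these values were 1.08 and 1.13 CPM. The part of lymphatic cells in the Prox1 result was not tested. In whole muscle, fewer cells of a type and less RNA per cell cannot be told apart.

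Esrrg (ENSMUSG00000026610, chr1:187608791-188214885, plus strand) encodes an orphan nuclear receptor of the oxidative program. It had 13.4, 14.8 and 18.1 CPM (lowest, median and highest) in WT TA and 72.2, 106 and 128 CPM in WT soleus. In ∆Ig3-MuSK it had 11.9, 17.8 and 20.1 CPM in TA and 77.1, 102 and 135 CPM in soleus. The muscles did not overlap in either genotype, and the soleus libraries of each genotype spread over a wider range than the TA libraries. The difference was 6.81-fold in WT (log2 2.77, SE 0.105, adjusted p = 2.74e-15, edgeR) and 6.00-fold in ∆Ig3-MuSK (log2 2.59, SE 0.0982, adjusted p = 2.02e-15).

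Vgll2 and Tead1 encode partners, a cofactor of the vestigial-like family and the DNA-binding TEA-domain factor that it can join. Vgll2 (ENSMUSG00000049641, chr10:52022502-52028471, plus strand) had 43.4, 57.2 and 72.6 CPM in WT TA and 132, 163 and 179 CPM in WT soleus. Its levels were 43.6, 50.6 and 71.6 CPM in ∆Ig3-MuSK TA and 129, 142 and 189 CPM in ∆Ig3-MuSK soleus. All soleus libraries were above all TA libraries, by 2.69-fold in WT (log2 1.43, SE 0.0925, adjusted p = 1.76e-11, edgeR) and 2.71-fold in ∆Ig3-MuSK (log2 1.44, SE 0.0957). Tead1 (ENSMUSG00000055320, chr7:112679318-112906807, plus strand) had 126, 207 and 237 CPM in WT TA and 258, 341 and 362 CPM in WT soleus. In ∆Ig3-MuSK it had 146, 198 and 235 CPM in TA and 266, 304 and 347 CPM in soleus. Here too the muscles did not overlap, but the gap was narrow and the TA libraries were spread widely, with a coefficient of variation of 21.5% in WT TA. Tead1 was 1.76-fold higher in soleus in WT (log2 0.82, SE 0.11, adjusted p = 1.33e-06, edgeR) and 1.496-fold in ∆Ig3-MuSK (log2 0.58, SE 0.0756, adjusted p = 6.95e-07).

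Mef2c and Nfatc1 act in the calcineurin pathway. Mef2c (ENSMUSG00000005583, chr13:83504034-83667080, plus strand) encodes a MADS-box factor of sarcomere and slow-fiber genes and is also transcribed in endothelial cells. It had 449, 506 and 578 CPM in WT TA and 637, 717 and 769 CPM in WT soleus, and 454, 502 and 543 CPM in ∆Ig3-MuSK TA and 581, 705 and 850 CPM in ∆Ig3-MuSK soleus. The muscles did not overlap, and the difference was 1.38-fold in WT (log2 0.46, SE 0.06, adjusted p = 7.69e-07, edgeR) and 1.40-fold in ∆Ig3-MuSK (log2 0.48, SE 0.0616). Markers of blood endothelium moved in the same direction: 5 of 5 were called higher in WT soleus and 4 of 5 in ∆Ig3-MuSK soleus, against 30% and 27.9% of all genes. The medians of these markers were 0.66 and 0.47 on the log2 scale. Their sum was 167 to 230 CPM in WT TA and 254 to 339 CPM in WT soleus, none was at 0 throughout a group, and their part in the Mef2c result was not tested. Nfatc1 (ENSMUSG00000033016, chr18:80606205-80713071, minus strand), the calcium-dependent factor itself, had 21.5, 31.3 and 33.7 CPM in WT TA and 29.0, 33.3 and 40.5 CPM in WT soleus. It had 30.2, 33.1 and 37.3 CPM in ∆Ig3-MuSK TA and 30.2, 31.4 and 35.3 CPM in ∆Ig3-MuSK soleus. Nfatc1 thus overlapped between the muscles in both genotypes and was the regulator with the smallest difference. That difference was 0.17 on the log2 scale in WT (95% interval 0.01 to 0.34, adjusted p = 0.0600, edgeR) and -0.03 in ∆Ig3-MuSK (95% interval -0.12 to 0.06, adjusted p = 0.512).

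The 3 regulators of the fast side were each higher in TA. Sox6 (ENSMUSG00000051910, chr7:115470872-116038796, minus strand), the repressor of slow genes, had 80.3, 109 and 124 CPM in WT TA and 34.3, 49.7 and 59.8 CPM in WT soleus. In ∆Ig3-MuSK it had 83.1, 124 and 138 CPM in TA and 48.6, 52.1 and 58.8 CPM in soleus. No soleus library reached a TA library, and Sox6 was 2.23-fold higher in WT TA (log2 soleus over TA -1.16, SE 0.103, adjusted p = 2.67e-09, edgeR) and 2.28-fold in ∆Ig3-MuSK TA (log2 -1.19, SE 0.0743). Tbx15 (ENSMUSG00000027868, chr3:99240381-99354259, plus strand), a T-box factor of glycolytic fibers, had 199, 236 and 262 CPM in WT TA and 100 (the lowest library), 114 and 153 CPM in WT soleus. It had 199, 256 and 281 CPM in ∆Ig3-MuSK TA and 107, 137 and 152 CPM in ∆Ig3-MuSK soleus. The muscles did not overlap, and Tbx15 was 1.97-fold higher in WT TA (log2 soleus over TA -0.98, SE 0.0785, adjusted p = 5.25e-10, edgeR) and 1.81-fold in ∆Ig3-MuSK TA (log2 -0.86, SE 0.0708). Eya1 (ENSMUSG00000025932, chr1:14168954-14310235, minus strand), the coactivator, had 14.5, 17.8 and 21.6 CPM in WT TA and 8.60, 12.0 and 16.3 CPM in WT soleus. It had 16.2, 18.6 and 21.8 CPM in ∆Ig3-MuSK TA and 10.3, 12.2 and 13.6 CPM in ∆Ig3-MuSK soleus. Eya1 was 1.48-fold higher in WT TA (log2 -0.57, SE 0.107, adjusted p = 8.47e-05, edgeR), where 7 of 9 TA libraries were above every soleus library, and 1.57-fold in ∆Ig3-MuSK TA (log2 -0.65, SE 0.0617), where all 9 were.

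**Figure D2:**
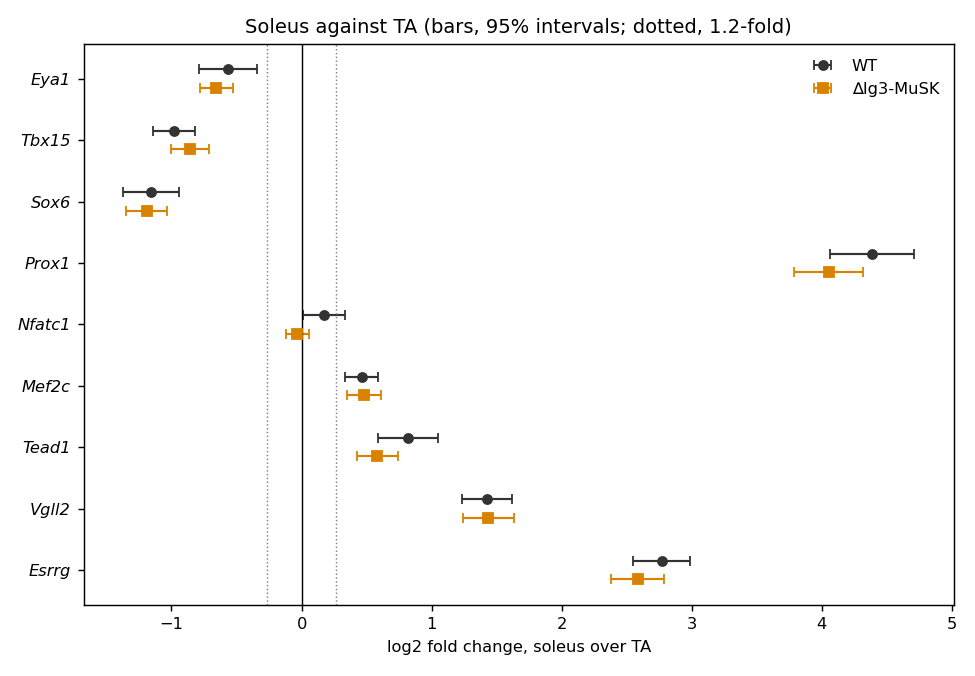
Log2 difference between soleus and TA of each regulator in WT and in ∆Ig3-MuSK (edgeR), with 95% intervals and 1.2-fold as dotted lines. Prox1 lies at 4.39 and 4.05, Esrrg at 2.77 and 2.59, Sox6 at -1.16 and -1.19, and the intervals of Nfatc1 reach 0.01 and -0.12 at their lower ends.

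Levels of different genes were compared per length, as CPM per kilobase of the union of all annotated exons. That union was 15715 bases over 31 transcripts for Mef2c and 3747 bases over 3 for Tbx15, so the order can depend on this choice. Without a length, Mef2c was above Tbx15 in WT TA (means of 513 and 237 CPM). In WT TA the order was Tbx15 (63.2 ± 5.62 CPM per kilobase, SD, n = 9), Vgll2 (35.8 ± 5.93), Mef2c (32.7 ± 2.71), Tead1 (13.7 ± 2.94), Sox6 (7.16 ± 1.03), Nfatc1 (4.00 ± 0.538), Esrrg (2.46 ± 0.245), Eya1 (2.37 ± 0.310) and Prox1 (0.128 ± 0.0413). The ranges of Vgll2 and Mef2c overlapped, as did those of Nfatc1 and Esrrg and of Esrrg and Eya1, and the other neighbours were apart. In WT soleus the order was Vgll2 (96.4 ± 10.8), Mef2c (45.0 ± 3.196), Tbx15 (32.2 ± 4.94), Tead1 (24.1 ± 2.73), Esrrg (16.8 ± 3.29), Nfatc1 (4.51 ± 0.472), Sox6 (3.22 ± 0.595), Prox1 (2.70 ± 0.442) and Eya1 (1.61 ± 0.333). There, the ranges of Vgll2 and Mef2c, of Tbx15 and Tead1, and of Esrrg and Nfatc1 were apart, and the other neighbours overlapped. The order by mean was the same in ∆Ig3-MuSK as in WT in each muscle. Tbx15, a fast-side regulator, was thus the most abundant regulator per length of the TA and still the third of the soleus, while Prox1 remained low per length in the soleus, where it was 20.9-fold higher than in TA.

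The counts of the other genes of these pathways are read against the shares called of all genes, 30% higher and 27.6% lower in WT soleus (57.7% in all) and 55.9% in all in ∆Ig3-MuSK. In WT, the calcineurin-NFAT-MEF2 list had 8 genes higher and 5 lower in soleus of 20 tested (65% called), with a median log2 difference of 0.21, against 0.02 over all genes. A share near that of all genes is no result about the list. Myoz2, a calcineurin-binding protein of slow fibers, was higher by 5.13 (SE 0.186), the calcineurin inhibitor Rcan2 by 1.63 (SE 0.0677) and its relative Rcan1, a known target of NFAT, by 1.78 (SE 0.171, named after its value was seen). Myoz1, the fast-fiber relative of Myoz2, differed by -2.46 (SE 0.183) and the catalytic subunit Ppp3cb by -1.10 (SE 0.0699), so both were higher in TA. Mef2a, a relative of Mef2c, was called higher in TA in both genotypes and is named after its value was seen. Its means were 112 CPM in WT TA and 85.9 CPM in WT soleus. Nfatc1 itself, not part of that list, had the interval of 0.01 to 0.34 given above. In ∆Ig3-MuSK the list had 6 higher and 7 lower, again 65%.

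The TEAD-VGLL-Hippo list had 6 genes higher and 3 lower in WT soleus of 17 tested (52.9% called, against 57.7% of all genes), with a median of 0.08 on the log2 scale. The coactivator gene Wwtr1 (TAZ) was higher in soleus by 0.72 (SE 0.0556), and Ccn2 and Ccn1, known targets of TEAD with YAP or TAZ, by 2.50 (SE 0.248) and 1.18 (SE 0.154). Sav1 (-0.68, SE 0.0618), of the kinase cascade that restrains YAP and TAZ, and the cofactor Vgll4 (-0.64, SE 0.0964) were higher in TA. Connective tissue also uses Ccn1 and Ccn2, and 4 of 4 tendon markers were called higher in WT soleus, with sums of 58.5 to 106 CPM in TA and 127 to 348 CPM in soleus and none at 0 throughout a group. Their part in these differences was not tested. In ∆Ig3-MuSK the list had 4 higher and 5 lower, again 52.9%. Without ∆Ig3-MuSK soleus replicate 8 it again had 4 and 5, with Tead4 no longer called (0.31, adjusted p = 0.0517, edgeR) and Stk4 called (0.27, adjusted p = 0.00037), while the other 3 pathway lists had the calls they had with it.

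The list of EYA relatives, their partners and other fast-program factors had 8 genes higher and 4 lower in WT soleus of 15 tested (80% called, against 57.7% of all genes), with a median of 0.38. Eya4, of the same family as Eya1, was 5.01-fold higher in WT TA (log2 -2.33, SE 0.0778), and the large Maf factors Mafa (-2.79, SE 0.133) and Maf (-3.25, SE 0.166), which act on the fastest fibers, were higher there too. Of the other Eya genes, Eya2 (0.77, SE 0.156) and Eya3 (0.30, SE 0.0537) were called higher in soleus, and both are named after their values were seen. The corepressor Dach2 was higher in soleus by 2.07 (SE 0.143). In ∆Ig3-MuSK the list had 7 higher and 5 lower, again 80%. The list of ERR-PGC1 and other oxidative-program factors had 8 higher and 3 lower of 17 tested (64.7% called, against 57.7% of all genes), with a median of 0.02. Esrrb, which encodes another receptor of the same family as Esrrg, was higher in soleus by 3.09 (SE 0.102) and Ldhb, the heart-type lactate dehydrogenase subunit, by 3.40 (SE 0.0933). Rxrg, a retinoid X receptor gene, was higher in TA (-1.57, SE 0.0947). In ∆Ig3-MuSK the list had 7 higher and 3 lower (58.8%, against 55.9% of all genes).

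The contractile genes give the scale of the difference between the muscles. All 10 slow contractile genes were higher in WT soleus, with a median of 7.96 on the log2 scale, and 10 of 11 fast contractile genes were lower, with a median of -1.41. Tpm3, slow tropomyosin, differed by 6.84 (SE 0.109), and Mylpf, the fast regulatory light chain, by -2.22 (SE 0.137). Of the regulators, only Prox1, at 4.39, exceeded the lowest slow contractile difference of 2.83. Myh1, the remaining fast gene, was at -0.08 (SE 0.194, adjusted p = 0.740, edgeR).

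**Figure D3:**
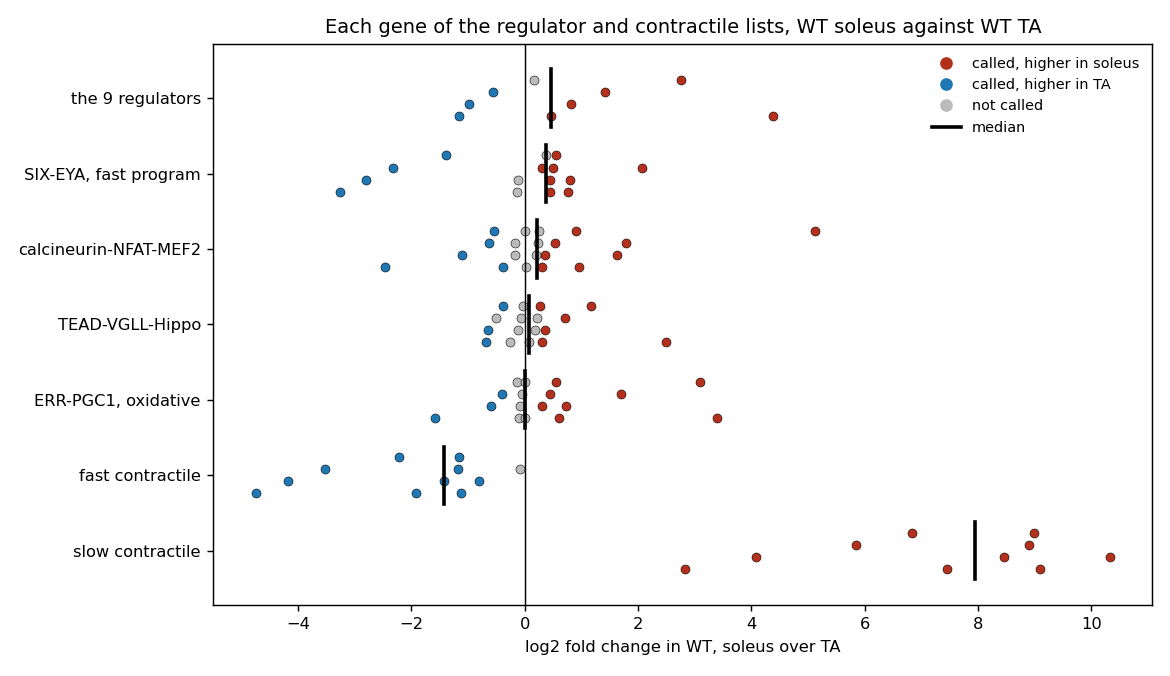
Log2 difference between WT soleus and WT TA (edgeR) of each tested gene in the regulator, pathway and contractile lists, with list medians as bars. The regulators spread from -1.16 to 4.39, and the slow contractile genes from 2.83 to 10.3.

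Markers of other cell types of whole muscle are read against the same shares, 30% of all genes called higher and 27.6% lower in WT soleus. Satellite cell markers were called higher in WT soleus for 4 of 5, with sums of 15.6 to 21.2 CPM in TA and 23.2 to 28.4 CPM in soleus. Fibroblast and macrophage markers were called higher for 2 of 5 each, Schwann cell markers for 1 of 5, and neuron markers for 1 of 5 with 4 lower. Immediate early genes, which respond to stimulation and handling, were called higher in WT soleus for 6 of 7 and lower for 1. No marker in any list was at 0 in every library of a group, and the part of these cells and responses in the regulators' differences was not tested.

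The second comparison asks whether the ∆Ig3-MuSK allele changes the regulators within each muscle. None of the 9 was called in TA, where edgeR called 3 of 20075 genes (0.0149%), and none had an unadjusted p under 0.05, which 24.1% of all genes had. Sox6 (0.17, 95% interval -0.03 to 0.37, adjusted p = 0.268), Esrrg (0.17, SE 0.0806, upper bound 0.33, adjusted p = 0.212) and Nfatc1 (0.14, -0.01 to 0.30, adjusted p = 0.231) had the largest positive log2 values besides Tead1 (0.14, -0.11 to 0.38) and Prox1 (0.13, -0.25 to 0.50). Vgll2 was at -0.13 (-0.34 to 0.09), and Eya1, Tbx15 and Mef2c were between -0.03 and 0.04. The ranges of WT and ∆Ig3-MuSK TA overlapped for all 9, and failed to for 0.0299% of all genes. For Eya1, Tbx15 and Mef2c the whole interval in TA lay within 1.2-fold in either direction, and for the other 6 it reached beyond.

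In soleus none of the 9 was called, where edgeR called 185 of 19439 genes (0.952%, of which 0.365% higher and 0.586% lower), and only Prox1 had an unadjusted p under 0.05, which 18.5% of all genes had. Prox1 was lower in ∆Ig3-MuSK soleus by its mean, 19.6 ± 3.26 against 22.7 ± 3.71 CPM (SD, n = 9), with 2 of 9 ∆Ig3-MuSK libraries below every WT library. Its log2 value was -0.22 (95% interval -0.44 to -0.01, unadjusted p = 0.0382, adjusted p = 0.237, edgeR), so it did not pass the test. Lymphatic markers, set beside it, were called for 0 of 5 in this comparison, with a median log2 value of -0.15, from -0.61 (Reln, SE 0.319) to 0.12, and with 4 of the 5 below 0. Their summed level was 19.3 to 48.2 CPM in WT and 13.3 to 42.7 CPM in ∆Ig3-MuSK soleus, and their part in the Prox1 value was not tested. Without ∆Ig3-MuSK soleus replicate 8, Prox1 was at -0.27 (SE 0.1002, unadjusted p = 0.015, adjusted p = 0.179, edgeR), again not called. The intervals of Tbx15 (0.14, -0.01 to 0.30), Sox6 (0.13, -0.05 to 0.30), Vgll2 (-0.13, -0.29 to 0.04) and Tead1 (-0.11, -0.24 to 0.03) included 0, as did those of Nfatc1 (-0.07), Eya1 (-0.06), Esrrg (-0.03) and Mef2c (-0.02). For Tead1, Nfatc1, Eya1, Esrrg and Mef2c the whole interval lay within 1.2-fold. The genotypes overlapped for all 9, and failed to for 0.0772% of all genes. Without ∆Ig3-MuSK soleus replicate 8, again 0 of the 9 were called, with 0.593% of all genes. Of the pathway lists, 2 genes of the TEAD-VGLL-Hippo list were lower in ∆Ig3-MuSK soleus, Ccn1 by -0.76 (SE 0.142, adjusted p = 0.0219, edgeR) and Vgll4 by -0.35 (SE 0.0801, adjusted p = 0.0390), and 0 genes of the other 3 pathway lists were called in either muscle. Without ∆Ig3-MuSK soleus replicate 8, Ccn1 stayed called (-0.72, adjusted p = 0.0373) and Vgll4 did not (-0.33, adjusted p = 0.0635). Other lists had lower values in the same comparison, with 0 genes called: the median log2 value was -0.58 over 4 tendon markers, -0.57 over 7 immediate early genes, -0.40 over 5 macrophage markers, -0.20 over 5 fibroblast markers, -0.13 over 5 markers of blood endothelium and -0.05 over 5 satellite cell markers. The median was above 0 for 5 Schwann cell markers (0.26, 0 called) and for 5 neuron markers (0.59, 1 called higher, Syt1). The tendon sum was 127 to 348 CPM in WT and 10.5 to 257 CPM in ∆Ig3-MuSK soleus, no marker was at 0 throughout a group, and the part of these cells and responses in the Ccn1 and Vgll4 values was not tested. The 11 fast contractile genes had a median log2 value of 0.23 in soleus, from -0.0022 to 0.58, and of -0.09 in TA. The 10 slow contractile genes had medians of -0.02 in soleus and 0.18 in TA. In both lists 0 genes were called in either muscle.

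**Figure D4:**
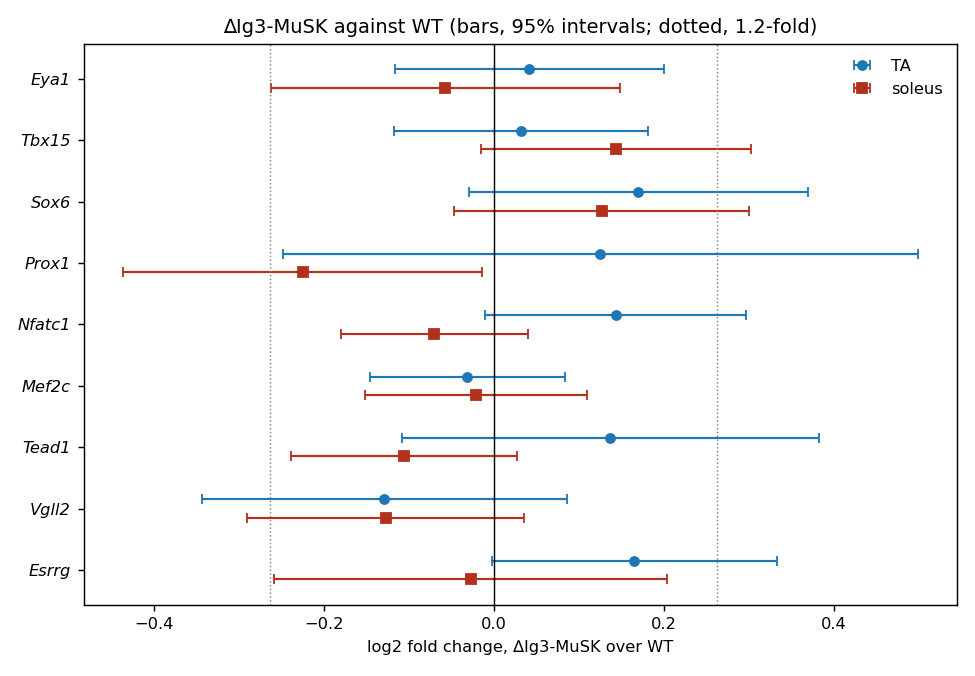
Log2 difference between ∆Ig3-MuSK and WT of each regulator in TA and soleus (edgeR), with 95% intervals and 1.2-fold as dotted lines. Every interval includes 0 except that of Prox1 in soleus, which runs from -0.44 to -0.01 before adjustment over all genes.

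Circadian clock genes differed between the genotypes in the same libraries. Of 10 clock genes, 5 were called higher and 2 lower in ∆Ig3-MuSK soleus, against 0.365% and 0.586% of all genes. Dbp, an output gene of the clock, was called higher in TA (0.90, SE 0.11, adjusted p = 0.0012, edgeR), where 0.0149% of all genes were called, and in soleus (1.23, SE 0.194, adjusted p = 0.0135). Without ∆Ig3-MuSK soleus replicate 8 the clock counts in soleus were again 5 and 2, with Dbp at 1.21 (adjusted p = 0.0244). The part of the clock in the genotype values of the regulators was not tested.

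The interaction asks whether the genotype difference is the same in both muscles. edgeR called 0 of 20841 genes in a single fit over the 36 libraries, although 24.9% had an unadjusted p under 0.05, and 0 of the 9 regulators. Nfatc1 had the smallest p, with a genotype difference lower by 0.20 on the log2 scale in soleus than in TA (log2 -0.20, 95% interval -0.39 to -0.02, unadjusted p = 0.0348, adjusted p = 0.170). Prox1 was at -0.33 (-0.74 to 0.08), Tead1 at -0.23 (-0.51 to 0.05) and Esrrg at -0.18 (-0.47 to 0.11), and Mef2c and Vgll2 were at 0.02 and 0.01.

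Within a group, single libraries often held the lowest or highest value of several regulators. WT TA replicate 5 held the lowest value of 6 regulators (Eya1, Tbx15, Sox6, Prox1, Nfatc1 and Tead1), and WT TA replicate 9 the highest of 5. WT soleus replicate 7 held the lowest value of 6 and replicate 9 the highest of 4. ∆Ig3-MuSK TA replicate 1 held the highest of 4. ∆Ig3-MuSK TA replicate 3 held the lowest of 4 and the lowest tendon sum of its group, 25.9 CPM against a median of 71.0. ∆Ig3-MuSK soleus replicate 2 held the highest of 3 and the lowest macrophage sum of its group, 11.9 CPM against a median of 35.3. Fits without these ∆Ig3-MuSK libraries were not made. After the mean of each group was removed, r of log2 CPM for the 36 pairs of regulators ran from -0.29 (Sox6 and Vgll2) to 0.753, with pairs such as Mef2c and Tead1 (0.0088) near 0. The closest pair was Prox1 and Tead1 (r = 0.753 over 36 libraries), with 0.933 in WT TA, 0.776 in ∆Ig3-MuSK TA, 0.358 in WT soleus and 0.375 in ∆Ig3-MuSK soleus. Tbx15 and Sox6 had r = 0.594 over all, with 0.629 in WT TA, 0.231 in ∆Ig3-MuSK TA, 0.901 in WT soleus and 0.452 in ∆Ig3-MuSK soleus. Tbx15 and Prox1 had r of opposite sign in the WT muscles, 0.348 in TA and -0.684 in soleus, a difference that was not tested. These are descriptions over libraries that share their depth and scaling, and libraries of 1 animal may be among them. Without WT TA replicate 5, the muscle difference in WT called the same number of regulators, 8, and the TA genotype effect again called 0.

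The genes most like 7 of the regulators by the same measure, among 15494 genes with a mean of at least 1 CPM, were Ago2 for Tead1 (r = 0.903), Ank for Tbx15 (0.856), Fat4 for Prox1 (0.826), Slc6a6 for Nfatc1 (0.826), Gpr157 for Eya1 (0.813), Fbxo44 for Vgll2 (0.785) and Qk for Esrrg (0.741). Each is the highest of so many values that its r is a description of the search and no support for a link. Ago2 encodes the slicer of the small RNA pathway.

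Since Myh4 spread so widely among the soleus libraries, the regulators were set against it within each genotype, a choice made after its values were seen, as 18 relations in log2 CPM. In WT soleus, Sox6 was higher where Myh4 was higher (Pearson r = 0.834, exact permutation p = 0.00637, adjusted p = 0.0573, Spearman rho = 0.85, exact permutation p = 0.00607, adjusted p = 0.109, n = 9). Without the 2 libraries farthest from the Myh4 median on the log2 scale, replicates 7 and 8, r was 0.664. These held the least Myh4 of the group (150 and 156 CPM). The relations without replicates 1 and 2, which held the most (6111 and 4083 CPM), were not computed. Tbx15 gave r = 0.820 (exact permutation p = 0.00561, adjusted p = 0.0573) and rho = 0.767 (exact permutation p = 0.0214, adjusted p = 0.153), and r = 0.704 without replicates 7 and 8. Prox1 gave r = -0.609 (exact permutation p = 0.0819, adjusted p = 0.491) and rho = -0.75 (exact permutation p = 0.0255, adjusted p = 0.153). None of the 18 passed the adjustment, and in ∆Ig3-MuSK soleus r was 0.249 for Sox6, 0.378 for Tbx15 and -0.333 for Prox1. Without the 2 libraries farthest from the Myh4 median of that group, replicates 1 and 6, r was 0.794 for Sox6, 0.462 for Tbx15 and 0.219 for Prox1. In WT soleus without replicates 7 and 8, those with the least Myh4, r was -0.606 for Prox1. Without ∆Ig3-MuSK soleus replicate 8, r was 0.196 for Sox6, 0.368 for Tbx15 and -0.535 for Prox1. In ∆Ig3-MuSK soleus the r of Sox6 and of Prox1 thus moved with the libraries left out, and that of Prox1 turned sign. Other regulators did so in both genotypes when the 2 farthest libraries of the group were left out. In ∆Ig3-MuSK soleus r went from -0.216 to 0.885 for Eya1 and from -0.374 to 0.650 for Tead1. In WT soleus it went from 0.093 to -0.652 for Eya1 and from 0.127 to -0.676 for Tead1. Whether the relations differ between the genotypes was not tested.

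**Figure D5:**
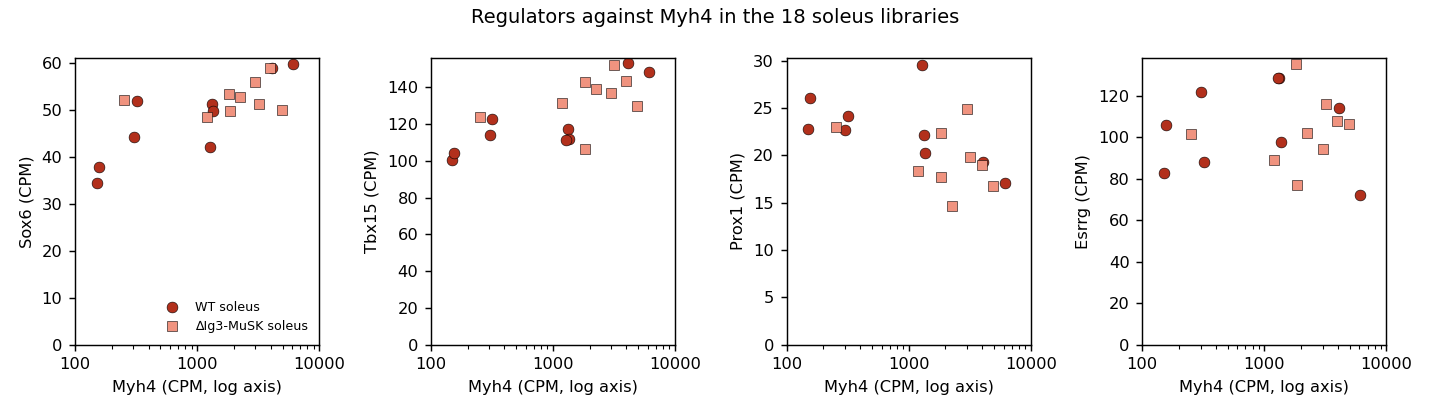
Sox6, Tbx15, Prox1 and Esrrg in CPM (linear axes) against Myh4 in CPM (log axis) in the 18 soleus libraries, 1 point per library. In WT soleus, the 2 libraries with the most Myh4 hold the 2 highest values of Sox6 and Tbx15 and the 2 lowest of Prox1.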

How the data were processed

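RNA was extracted from 36 muscles, and non-stranded libraries were sequenced. The authors trimmed reads with Trimmomatic, aligned them with GSNAP to mm10 (GRCm38) and deposited raw htseq-count read counts per Ensembl gene, 1 table for each muscle. The annotation release and counting mode are not given in the sources used here. Of 51912 IDs, 51719 matched GENCODE M21, which gave symbols, coordinates and exon lengths.

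Groups came from the labels. Members and gene lists were chosen with earlier results of these data known. Genes were filtered with filterByExpr (minimum count 10, minimum total 15), scaled with TMM (factors 0.811 to 1.19) and tested with glmQLFit and glmQLFTest in edgeR 4.0.16 (R 4.3.3), 1 fit of 18 libraries per comparison and 36 for the interaction, with Benjamini-Hochberg adjustment over all genes tested. Calls needed an adjusted p under 0.05 and, except for the interaction, 1.2-fold, the study's limits. Intervals are 95% t intervals. CPM values use 1 TMM scale. The text names all 9 members, Musk and the myosin heavy chains, up to 3 called genes of each list in each comparison by smallest adjusted p, and the gene most like each member, which is not reported here for 2 members. Rcan1, Mef2a, Eya2, Eya3, Tead4, Stk4, single libraries and pairs of members were chosen later. The alternatives tried were DESeq2 1.42.0, limma-voom (limma 3.58.1), RLE factors, no filter, no fold minimum, a single fit, replicate blocks and, chosen after the values were seen, fits without 1 library. The procedure was tested on simulated counts. All libraries were used. No 2 libraries of a muscle were copies (smallest chi-square per degree of freedom 11.7). The labels do not say that same-numbered TA and soleus libraries share an animal, the replicates are 9 separate muscles per group, and counts give precision for counting error only.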

Additional observations from a re-analysis of the deposited data

How the results depend on the processing

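The number of regulators called was the same under all 37 alternatives to the 5 comparisons, 8 for each muscle difference and 0 for each genotype effect and the interaction. Of the fold changes of single regulators, 327 kept their direction and side of the threshold, and 6 uncalled values turned sign near 0: Eya1 in TA without WT TA replicate 5 (-0.0016), Tbx15 in TA with limma-voom (-0.011) and without WT TA replicate 5 (-0.0021), Mef2c in soleus without ∆Ig3-MuSK soleus replicate 8 (0.0031), and Sox6 (0.0297) and Vgll2 (-0.062) in the interaction with limma-voom. Leaving out these libraries was chosen after seeing the data. The number of all genes called depended on the test. In TA it was 3, and 225 with DESeq2, 150 with limma-voom, 692 in a single fit, 10 without a filter and 0 with the replicate block. In soleus it was 185, and 486 with DESeq2, 653 with limma-voom, 312 in a single fit, 347 with the replicate block and 116 without ∆Ig3-MuSK soleus replicate 8. For the interaction it was 0, and 1049 with DESeq2, 1352 with limma-voom and 9 with limma-voom and the label number as a random replicate block. The cause was not tested. The adjusted p of Nfatc1 between WT muscles was 0.0182 to 0.169 over its 8 alternatives, always under 1.2-fold, and that of Prox1 between soleus genotypes 0.0551 (replicate block) to 0.429. The main tests did not pair libraries by number, because the labels do not say that a number names an animal. TA and soleus libraries of 1 label number correlated with r of 0.0256 to 0.123 in WT and 0.0324 to 0.284 in ∆Ig3-MuSK (8 pairs each). All of these values were above 0. In 2 and 5 of the 8 pairs the TA library correlated best with its own number, among the 9 soleus libraries of its genotype. Whether same-numbered libraries share an animal was not settled by these values. WT and ∆Ig3-MuSK share no label number. Their libraries with the same replicate number in the title, the replicate block of the genotype effects, correlated with r of -0.279 to 0.313 in soleus and -0.13 to 0.394 in TA. With the label number as a block, 8 regulators were called in each muscle difference. Scaling by library size alone moved 1 of 36 mean levels by more than its SD, that of Mef2c in WT soleus (759 CPM), and RLE factors moved 0. With 33 counts in its lowest TA library, Prox1 was the regulator with the least depth.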
